A study of Mus musculus with 8 samples.

Results

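The genes described here are BCL2 family members that hold cells back from mitochondrial death or drive them into it. They were taken from the deposited table by symbol: Bcl2, Bcl2l1, Mcl1, Bcl2a1a, Bcl2a1b, Bcl2a1d, Bax, Bak1, Bcl2l11 and Pmaip1. Of these 10 genes, 9 have a row among the 13204 genes of the table, and Bak1 was not analysed here. All 9 passed the filter on low values described below. The cells are OT-I cells, mouse CD8 T cells with 1 transgenic receptor for an ovalbumin peptide. Per the labels, 1000000 of them were given 24 hours before a skin graft that expresses ovalbumin, and spleens were taken 14 days after grafting. Spleens of 3 mice were combined into each of 4 pools. Each pool gave 1 library of 1000 cells sorted as FcgRIIB+ CD44hi Thy1.1+ CD8+ and 1 library of 1000 cells sorted as FcgRIIB- CD44hi Thy1.1+ CD8+. FcgRIIB is the inhibitory receptor for the constant part of IgG. Both groups therefore share the transfer, the graft, the day and the other sort markers, and differ in FcgRIIB alone as far as the labels say. Neither strain, age nor sex of the hosts is stated in the labels. The comparison asks how survival and death genes differ between antigen-specific CD8 T cells that carry this receptor and those that do not.

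The BCL2 family decides whether the outer mitochondrial membrane is opened, the step that releases cytochrome c and commits a cell to apoptosis. Guardians such as BCL2, BCL-XL (Bcl2l1), MCL1 and A1 (the Bcl2a1 genes) bind and restrain the pore formers BAX and BAK. BH3-only proteins such as BIM (Bcl2l11) and NOXA (Pmaip1) occupy the guardians and so set the pore formers free. In CD8 T cells the loss of effectors after a response depends largely on BIM, and memory cells are known for high BCL2. NOXA binds MCL1 and A1 in preference to the other guardians. A1 is an NF-kappaB target known from activated lymphocytes, granulocytes, mast cells and myeloid cells.

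The mouse A1 gene exists as near-identical copies on chromosome 9, and the results turn on how these copies differ, so their sequences are shown first. Coding regions were read from the GENCODE M21 transcripts (GRCm38). Each is 519 bases long, and the copies differ at 12 of these positions. The first 60 coding bases hold 6 of the 12, and capitals mark the positions at which not all copies are alike, counted from base 1 of the start codon.
Bcl2a1a: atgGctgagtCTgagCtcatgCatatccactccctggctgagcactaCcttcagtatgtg
Bcl2a1b: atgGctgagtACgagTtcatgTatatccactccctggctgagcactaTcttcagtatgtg
Bcl2a1d: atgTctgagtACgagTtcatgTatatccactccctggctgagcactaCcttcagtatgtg

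Bcl2a1a alone differed at 6 positions, Bcl2a1b alone at 5 and Bcl2a1d alone at 1. Coding identity was 97.9% between Bcl2a1a and Bcl2a1b, 98.7% between Bcl2a1a and Bcl2a1d and 98.8% between Bcl2a1b and Bcl2a1d. The longest stretch shared by all 3 copies spans 217 bases. Reads from such a stretch fit every copy. Of all windows of 50 bases in the transcripts, a length chosen arbitrarily because no label states the read length, 32.3% were unique to Bcl2a1a, 42.4% to Bcl2a1b and 20.5% to Bcl2a1d. How the authors assigned reads that fit several copies is not stated either, so the level of each single copy is uncertain.

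**Figure D1:**
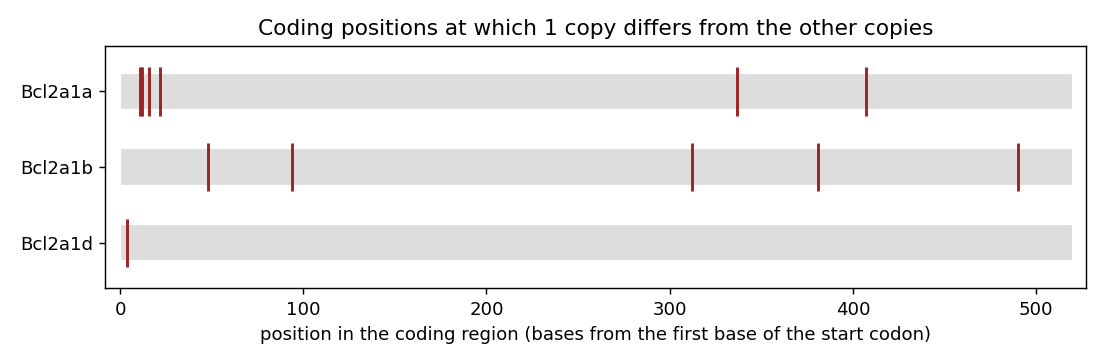
Coding region of each Bcl2a1 copy (grey bar, 519 bases, x axis in bases from the start codon), with red lines at the positions at which that copy differs from the others. Bcl2a1a has 6 such positions, 4 of them close to the start codon, Bcl2a1b 5 and Bcl2a1d 1.

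Upstream of their start sites the copies are also alike. RefSeq promoter windows (GRCm38.p6, 300 bases) were matched for 9 of the 10 symbols. The aligned part of the windows was identical at 99.2% of positions for Bcl2a1a and Bcl2a1b, 96.0% for Bcl2a1a and Bcl2a1d and 96.5% for Bcl2a1b and Bcl2a1d. The stretch around a match to a loose AP-1 pattern and an ETS motif of the PU.1 type is shown, both in capitals in that order. It was chosen because it holds a difference in spacing between the copies.
Bcl2a1a, chr9:88956780-88956863, plus strand: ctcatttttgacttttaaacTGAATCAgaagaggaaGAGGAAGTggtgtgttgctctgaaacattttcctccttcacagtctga
Bcl2a1b, chr9:89199089-89199172, plus strand: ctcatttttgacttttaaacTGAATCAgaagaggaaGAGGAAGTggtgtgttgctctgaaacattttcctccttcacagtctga
Bcl2a1d, chr9:88731907-88731984, minus strand: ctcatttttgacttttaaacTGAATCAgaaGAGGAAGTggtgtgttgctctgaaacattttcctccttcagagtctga

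The first bases of these motifs lie 16 bases apart in Bcl2a1a and Bcl2a1b and 10 apart in Bcl2a1d, whose stretch is shorter at that place. On either strand, TGANTCA (the loose AP-1 pattern, N being any base) occurs in 7.81% of the 32851 promoter windows of the reference. GAGGAAGT (ETS) occurs in 3.20% of them, and all 3 copies hold both. The CRE core TGACGT, found in 7.51% of windows, is in none of these 3, and a loose kappaB pattern found in 50.8% is in the window of Bcl2a1b only, past its start site. A match describes letters in a window and does not show that a factor binds there.

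Transcripts of Bcl2a1a, Bcl2a1d and Pmaip1 were higher in FcgRIIB-positive libraries, by 8.48-fold, 3.95-fold and 6.58-fold on the RPKM + 1 scale. RPKM divides reads by the length of a gene's exons and by the depth of the library, so that levels of different genes can be compared. The other 6 measured genes did not pass the test: Bcl2, Bcl2l1, Mcl1, Bcl2a1b, Bax and Bcl2l11. In all 4 pools the summed RPKM of dendritic cell, macrophage and basophil marker genes was also higher in the positive library, and that of core T cell genes lower. The part of these markers in the differences of BCL2 family genes was not tested. The test was limma on log2(RPKM + 1) with the pool as a block, and a gene counts as called at a Benjamini-Hochberg adjusted p under 0.05 over 11946 genes. In that fit 3 of the 9 genes were called higher, where 7.22% of all genes were, and none lower, where 3.85% were. Without the block, limma called 2 of the 9 higher, against 3.03% of all genes, and none lower, against 0.268%. At an unadjusted p under 0.05 Bcl2 was lower in both fits, and Bcl2a1b, also not called, was higher in the blocked fit only. The median log2 fold change was 0.05 over the 9 genes and -0.11 over all genes tested. Ranges of the 4 positive and 4 negative libraries did not overlap for 4 of the 9, namely the 3 called genes on the higher side, where 4.61% of all genes lay, and Bcl2 on the lower side, where 4.15% lay.

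**Figure D2:**
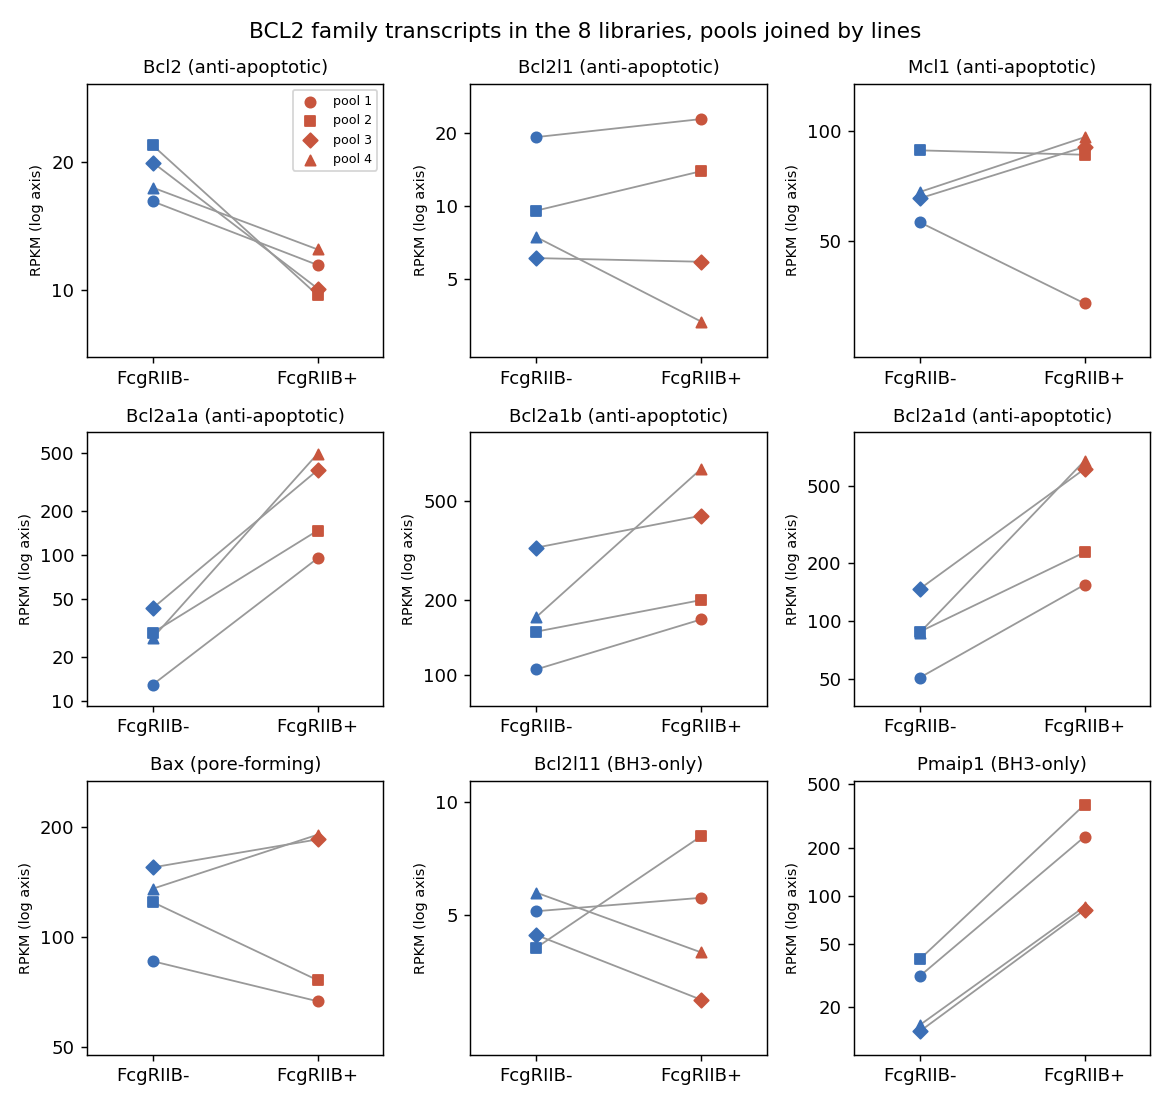
RPKM (log axis, own range in each panel) of the 9 measured genes in FcgRIIB-negative (blue) and FcgRIIB-positive (red) libraries, with 1 symbol per pool and a line joining the libraries of a pool. All 4 lines rise for Bcl2a1a, Bcl2a1b, Bcl2a1d and Pmaip1, all 4 fall for Bcl2, and 2 rise and 2 fall for the other genes.

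Bcl2, the guardian known for keeping memory T cells alive, had 16.2, 21.9, 19.98 and 17.4 RPKM in negative replicates 1 to 4. In positive replicates 1 to 4 it had 11.4, 9.70, 10.1 and 12.5 RPKM. Every positive library was thus below every negative one, and the spread within each group was small. The means were 10.9 ± 1.27 against 18.9 ± 2.58 RPKM (SD, n = 4 each). The log2 fold change of -0.74 (SE 0.25, 95% interval -1.25 to -0.22) missed the threshold with a limma adjusted p of 0.0581, and of 0.249 without the block. All 4 pairs were lower, as were those of 19.8% of all genes. With libraries scaled to core T cell genes, as described below, Bcl2 had a log2 fold change of 0.23 (limma adjusted p = 0.444). Of the 9 genes, Bcl2 varied least between the libraries of a group, with a coefficient of variation of 13.7% in negative and 11.6% in positive ones.

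Bcl2l1, which codes for BCL-XL, differed between pools more than between groups. It had 19.3, 9.58, 6.10 and 7.45 RPKM in negative replicates 1 to 4 and 22.9, 13.9, 5.90 and 3.34 RPKM in the positive ones. Pools 1 and 2 were slightly higher in positive cells, and pools 3 and 4 lower. Positive cells stood at -0.07 in log2 fold change, with a 95% interval of -0.65 to 0.51 (SE 0.28, limma adjusted p = 0.936).

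Mcl1, a short-lived guardian that T cells need at every stage, ranked 4 of the 9 genes by mean level in negative and 6 in positive cells. Negative replicates 1 to 4 had 56.2, 88.3, 65.4 and 68.0 RPKM, and positive ones 33.8, 85.9, 90.3 and 96.0 RPKM. Positive replicate 1 lay far below the other positive libraries. Over all pools this gave a log2 fold change of 0.05 with a 95% interval of -0.47 to 0.57 (SE 0.25, limma adjusted p = 0.951). By mean RPKM it ranked above 89.3% of the tested genes in negative and 90.6% in positive libraries.

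The A1 copies held most of the guardian RPKM and the largest rise among the guardians. Bcl2a1a had 12.9, 29.4, 43.3 and 27.1 RPKM in negative replicates 1 to 4 and 95.2, 147.5, 383.5 and 496.5 RPKM in positive ones. The lowest positive library was thus above the highest negative one. The mean rose from 28.2 ± 12.4 to 280.7 ± 190.9 RPKM (SD, n = 4 each), with a log2 fold change of 3.08 (SE 0.27, limma adjusted p = 2.62e-08, and 0.00954 without the block). Within pools the log2 difference was 2.79, 2.29, 3.12 and 4.14. Recovered reads behind these values number between 66 and 2585 per library.

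Bcl2a1d had 50.9, 88.0, 146.8 and 87.1 RPKM in negative replicates 1 to 4 and 154.2, 227.0, 613.5 and 676.3 RPKM in positive ones. These ranges also did not overlap, though positive replicate 1 lay close to negative replicate 3. A log2 fold change of 1.98 with SE 0.28 resulted (limma adjusted p = 2.59e-05). Without the block the gene missed the threshold (limma adjusted p = 0.0874), and with single libraries left out of that unblocked fit the adjusted p ran from 0.0444 to 0.257. Leaving out any 1 pool in the blocked fit kept it called.

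Bcl2a1b was the most abundant copy in negative cells and had the smallest fold change of the copies. It had 105.3, 149.3, 324.1 and 170.9 RPKM in negative and 167.0, 199.7, 435.1 and 670.3 RPKM in positive replicates 1 to 4. Each pool had more in positive cells, as did those of 10.3% of all genes, but the groups overlapped, and pool 4 had a larger difference than the other 3. The log2 fold change of 0.87 (SE 0.30) missed the threshold in limma (adjusted p = 0.0668, and 0.645 without the block). It passed without pool 2 (1.02, limma adjusted p = 0.00332) and after quantile normalization (0.84, limma adjusted p = 0.0141).

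Because reads can be split among the copies, the copies were also summed. RPKM divides by length, which is 764 bases for Bcl2a1b and 796 for Bcl2a1a and Bcl2a1d, so the sum depends only slightly on such a split. It would also change if shared reads were dropped or counted more than once. Summed, the copies had 169.2, 266.7, 514.2 and 285.1 RPKM in negative and 416.4, 574.3, 1432 and 1843 RPKM in positive replicates 1 to 4. The sum was higher in every pool, and only positive replicate 1 lay below the highest negative library. With the 3 rows replaced by their sum, a fit chosen after seeing the data, the rise came to 1.64 in log2 with SE 0.34 (limma adjusted p = 0.00178). The call ended without pool 1 (1.76, limma adjusted p = 0.0591) and without the block (limma adjusted p = 0.213).

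The make-up of the sum differed between the groups in every pool. Bcl2a1a made up 7.65%, 11.02%, 8.43% and 9.51% of it in negative replicates 1 to 4 and 22.9%, 25.7%, 26.8% and 26.9% in positive ones. Bcl2a1b went the other way, from 60.3 ± 3.17% in negative to 35.4 ± 4.03% in positive libraries (SD, n = 4 each). Bcl2a1d made up 30.6 ± 1.85% and 39.0 ± 2.84%. These shares are ratios within a library, which no rescaling of whole libraries can change. They vary far less between pools than the levels do. They are given as a description, with no test, and they rest on the authors' assignment of shared reads.

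**Figure D3:**
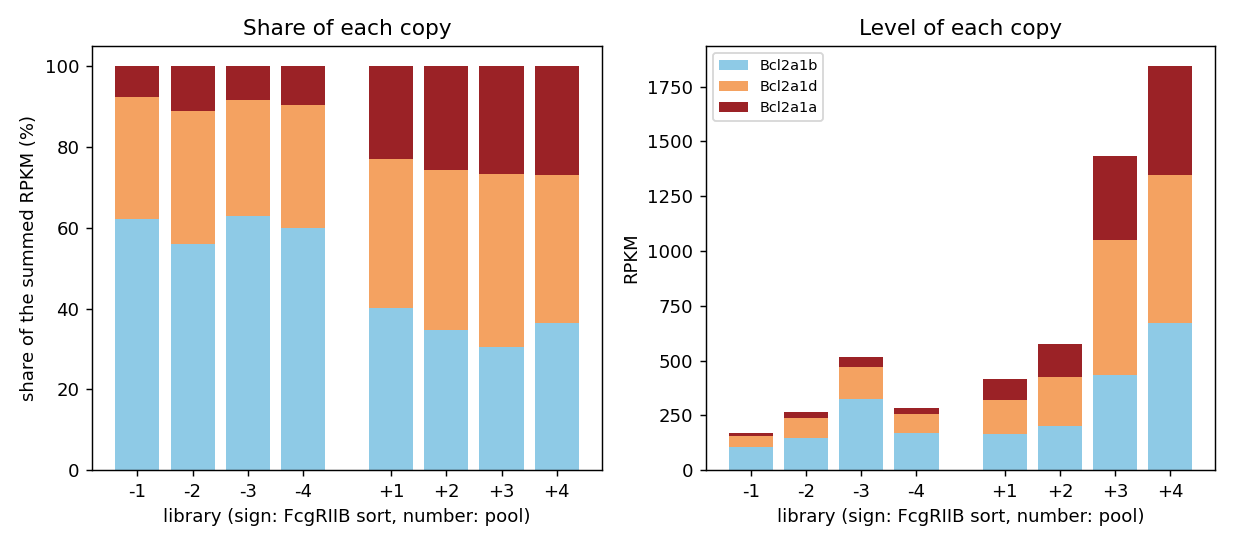
Share of each Bcl2a1 copy in the summed RPKM of the 3 copies (left, %) and the RPKM of each copy (right), stacked by library, with - and + for FcgRIIB-negative and FcgRIIB-positive cells and the pool number. The dark segment, Bcl2a1a, lies between 7.65% and 11.02% in negative and between 22.9% and 26.9% in positive libraries.

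Bax, the pore former with a row in the table, had 85.9, 124.6, 155.2 and 135.7 RPKM in negative replicates 1 to 4. In positive replicates it had 66.8, 76.2, 185.1 and 190.7 RPKM. Positive cells had less in pools 1 and 2 and more in pools 3 and 4, so the pools disagree in direction. Across pools the fitted log2 fold change of Bax was -0.08, within a 95% interval of -0.62 to 0.46 (SE 0.26, limma adjusted p = 0.918).

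Among the BH3-only genes, Bcl2l11 and Pmaip1 behaved differently. Bcl2l11, which codes for BIM, was the least abundant of the 9 genes by mean level in both groups, with 5.12, 4.09, 4.42 and 5.73 RPKM in negative and 5.55, 8.10, 2.98 and 3.98 RPKM in positive replicates 1 to 4. Its pools split in direction, with positive cells higher in pools 1 and 2. Fitted over all pools, the log2 difference was 0.01 with a 95% interval of -0.61 to 0.64 (SE 0.30, limma adjusted p = 0.991).

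Pmaip1, which codes for NOXA, had 31.4, 40.1, 14.2 and 15.5 RPKM in negative replicates 1 to 4. Positive replicates had 234.1, 371.6, 81.6 and 85.6 RPKM. Every positive library was above every negative one, and pools 1 and 2 were above pools 3 and 4 in both groups. The mean was 193.2 ± 138.5 against 25.3 ± 12.6 RPKM (SD, n = 4 each). In log2 terms the rise was 2.72 with SE 0.24 (limma adjusted p = 2.10e-08, and 0.0165 without the block). Pool by pool the log2 difference was 2.86, 3.18, 2.44 and 2.39, the most even of the called genes. In the unblocked fit the call ended without negative replicate 3 (limma adjusted p = 0.0860) or positive replicate 1 (limma adjusted p = 0.0509).

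**Figure D4:**
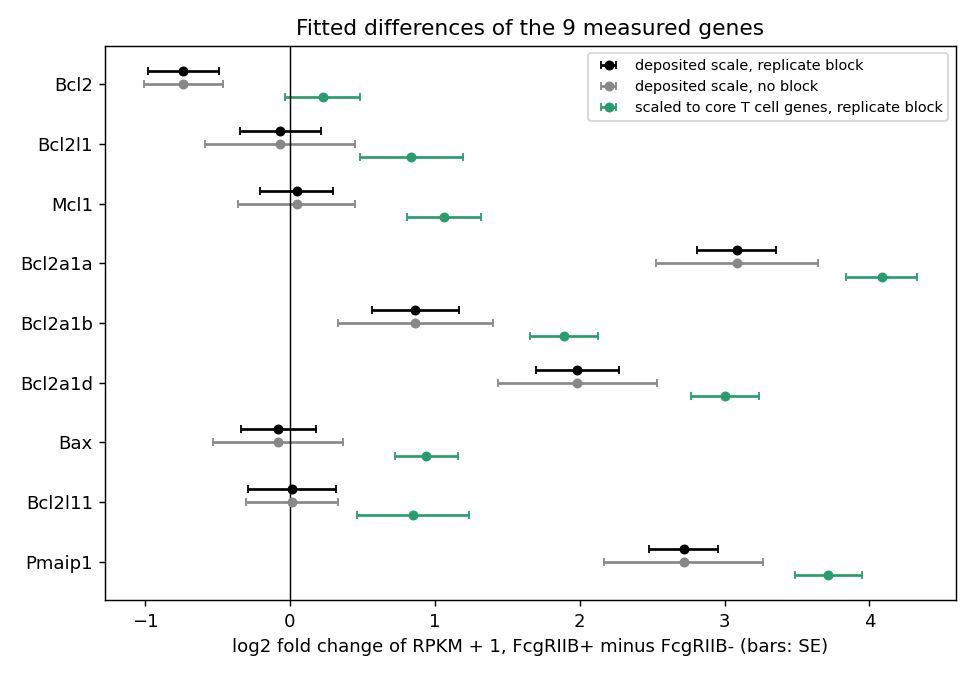
Log2 fold change of RPKM + 1, FcgRIIB-positive minus FcgRIIB-negative (x axis), of the 9 measured genes, with bars of 1 SE. Black is the fit with the pool as a block, grey the fit without it, and green the blocked fit after scaling to core T cell genes. Bcl2a1a, Bcl2a1d and Pmaip1 lie to the right of 0 in all 3, and Bcl2 crosses from -0.74 to 0.23 with the scaling.

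In order of mean level, negative cells had Bcl2a1b, Bax, Bcl2a1d, Mcl1, Bcl2a1a, Pmaip1, Bcl2, Bcl2l1 and Bcl2l11, from 187.4 down to 4.84 RPKM. Positive cells had Bcl2a1d, Bcl2a1b, Bcl2a1a, Pmaip1, Bax, Mcl1, Bcl2l1, Bcl2 and Bcl2l11, from 417.8 down to 5.15 RPKM. In positive cells the first 3 of these overlap widely between libraries, as do Bcl2l1 and Bcl2. Among all tested genes Pmaip1 rose from percentile 75.6 to 95.9 of mean level and Bcl2a1a from 77.3 to 97.1.

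Ratios within a library set opposing members side by side. The ratio of Pmaip1 to Mcl1, whose products bind each other, was 0.559, 0.454, 0.217 and 0.228 in negative replicates 1 to 4. In positive replicates it was 6.93, 4.32, 0.903 and 0.892, above the negative library of the same pool each time. The groups did not overlap, while the pools of a group differed among themselves by several-fold. The ratio of Bcl2l11 to Bcl2 ran from 0.187 to 0.329 in negative and from 0.296 to 0.835 in positive libraries, which overlap. Bcl2 made up 3.30% to 6.20% of the summed guardian RPKM in negative and 0.637% to 2.36% in positive libraries. The A1 copies made up 64.9% to 84.9% and 84.0% to 94.3%. These shares also rest on how reads that fit several A1 copies were counted. RNA levels do not show how much protein each gene gave.

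Elsewhere in the BCL2 family a single gene was called, 1 of 10 tested, where 7.22% of all genes were called higher. Of 16 further family genes 11 have a row and 10 passed the filter. With the core T cell scaling 6 of these 10 were called higher, where 42.9% of all genes were. Bcl2l14, which codes for the family member BCL-G, was at 1.10, 3.91, 0.377 and 3.00 RPKM in negative and 12.2, 33.8, 13.6 and 13.0 RPKM in positive replicates 1 to 4. All positive libraries were above all negative ones, with a log2 fold change of 2.67 (SE 0.30, limma adjusted p = 9.01e-07). The other 9 were not called with or without the block. The most abundant of them were Bnip3l, a mitophagy receptor gene, at 67.5 against 88.1 RPKM, and Bad, a BH3-only gene, at 30.1 against 28.5 RPKM. The median of the 10 was -0.11, the same as over all genes.

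Downstream of the mitochondrion no gene was called in limma, with or without the block. This list holds 17 genes of cytochrome c release, the apoptosome, caspases and their inhibitors, all tested, with a median of 0.04. Scaled to core T cell genes, a scale on which 42.9% of all genes were called higher, 13 of the 17 were called higher and none lower. Birc3, an inhibitor of apoptosis, and Endog, a mitochondrial nuclease, were the only ones at an unadjusted p under 0.05 in the blocked fit, with log2 fold changes of 0.69 and -0.69 (limma adjusted p = 0.0670 and 0.128), and they are named after their values were seen. Cycs, which codes for cytochrome c, was at 209.9 ± 136.4 against 136.9 ± 65.7 RPKM, and Vdac3, a channel of the outer membrane, at 114.3 against 126.9 RPKM.

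Among 21 known regulators of these genes, 20 were tested, 3 were called higher and 1 lower, with a median of -0.17, where 7.22% and 3.85% of all genes were called. Scaled to core T cell genes, 10 of the 20 were called higher and none lower, where 42.9% and 0.109% of all genes were. Atf3, a stress-induced transcription factor, was at 1.88, 31.4, 6.36 and 19.8 RPKM in negative and 138.8, 227.8, 159.0 and 142.4 RPKM in positive replicates 1 to 4. On the log2 scale it rose by 3.91 with SE 0.34 (limma adjusted p = 1.99e-08). The NF-kappaB subunit genes Rel, at 24.0 against 7.80 RPKM, and Nfkb1, at 30.1 against 14.9 RPKM, had log2 fold changes of 1.33 and 1.00 (limma adjusted p = 0.00172 and 0.00756). Foxo1, a transcription factor of quiescent and memory T cells, was at 14.1 against 27.3 RPKM (-0.89, limma adjusted p = 0.0159), and with the core T cell scaling its difference was 0.09 (limma adjusted p = 0.762). Without the block Atf3 alone of these 4 was called. Il2rb, a receptor chain for IL-2 and IL-15, and Irf1 had -0.66 and -0.42 and did not pass.

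The same libraries differed in markers of other cell types, whose part in the differences above was not tested. The marker lists were chosen with earlier results of these data known. For all marker lists, the shares over all genes were 7.22% called higher and 3.85% lower with the block. Without the block they were 3.03% and 0.268%. Dendritic cell markers were called higher for 14 of 14 tested genes, and for 13 without the block, with a summed level of 675.6 to 1780 RPKM in negative and 8945 to 16056 RPKM in positive libraries. Monocyte and macrophage markers were called for 14 of 14, and for 9 without the block, with sums of 249.9 to 1529 and 2886 to 5330 RPKM. Basophil and mast cell markers were called for 8 of 8, and for 3 without the block, with sums of 4.30 to 40.1 and 73.9 to 1261 RPKM. Single genes did not always follow the sums. In pool 2 the macrophage marker Lyz2 was at 771.6 RPKM in the positive and 855.6 RPKM in the negative library. The basophil marker Prss34 was at 2.24 and 2.52 RPKM there. None of the dendritic or macrophage markers was at 0 in any library. Of the basophil and mast cell markers 2 had a 0 in some library, both on the negative side: Mcpt8 in replicate 3 and Fcer1a in replicate 1.

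Of 20 core T cell genes, 12 were called lower in positive libraries in the blocked fit, where 3.85% of all genes were. None was called without the block, where 0.268% of all genes were called lower. The median of the core T cell genes was -0.97. Their summed level was 5951 to 9618 RPKM in negative and 2315 to 4822 RPKM in positive libraries. Fcgr2b, which codes for the receptor used in the sort and is also expressed by dendritic cells, macrophages, mast cells and B cells, was at 3.19, 4.82, 1.82 and 4.76 RPKM in negative and 69.9, 55.2, 39.1 and 29.6 RPKM in positive replicates 1 to 4. Cd8b1, a CD8 chain gene, was at 1326 ± 443 RPKM in negative and 697 ± 244 RPKM in positive libraries (SD, n = 4 each). It was not called (limma adjusted p = 0.113), and nor was the other CD8 chain gene, Cd8a, at -0.28 in log2 fold change (limma adjusted p = 0.607). In every positive library the summed dendritic cell markers exceeded the summed core T cell genes, and in every negative library they were below them. Most of the dendritic sum in positive libraries came from Cd74 and Cst3, at means of 5553 and 5223 RPKM. The order of the sums there rests on these genes. The sums of dendritic, macrophage and basophil markers were higher in the positive library of every pool, and negative libraries held these markers too. Which cells this RNA came from was not tested. Neutrophil markers varied by pool and group, with none of 8 called higher and 1 lower, and sums between 22 and 2100 RPKM. B cell markers had none of 8 called higher and 2 lower. Neither neutrophil nor B cell markers had a call without the block. Plasma cell markers had 3 of 7 called higher, and 1 without the block. Natural killer cell markers had 2 of 6 higher and 1 lower, and 1 in each direction without the block. Of the 2 called higher, Tyrobp is also counted among the macrophage markers. In bulk libraries fewer cells of a type and less RNA per cell cannot be told apart.

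**Figure D5:**
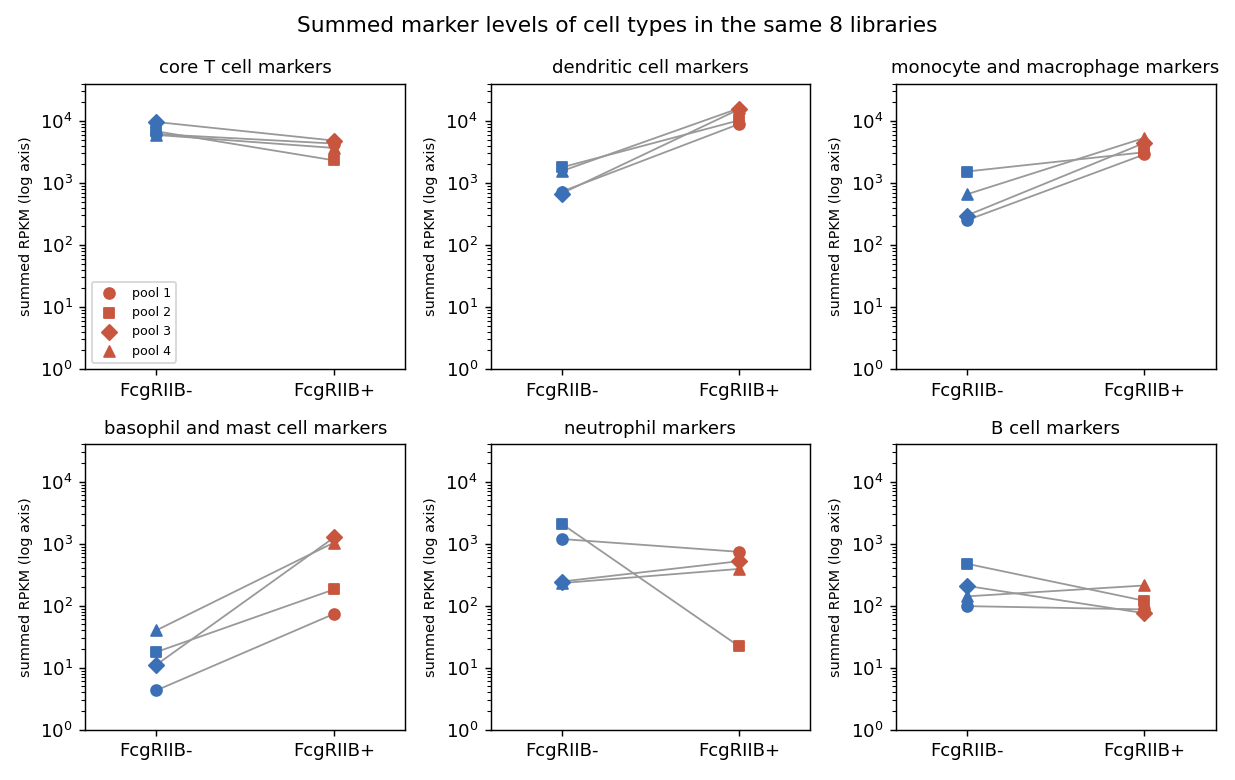
Summed RPKM (log axis, the same in all panels) of marker genes of 6 cell types in FcgRIIB-negative (blue) and FcgRIIB-positive (red) libraries, with lines joining the libraries of a pool. Dendritic, macrophage and basophil sums rise in all 4 pools and the core T cell sum falls in all 4, from 5951 to 9618 RPKM down to 2315 to 4822 RPKM.

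When libraries were instead put on a common level of core T cell genes, the median over all genes shifted by 0.83 and became 0.72. On that scale 6 of the 9 genes were called higher, against 42.9% of all genes, and none lower, against 0.109%. Bcl2a1a, Bcl2a1d and Pmaip1 stood at 4.08, 3.00 and 3.72 in log2 fold change, and relative to the shifted median at 3.37, 2.29 and 3.00. Bcl2 stood at 0.23 (limma adjusted p = 0.444), that is -0.49 relative to that median, where the deposited scale gave -0.62 relative to its own. Mcl1, Bax and Bcl2a1b were called at 1.06, 0.94 and 1.89.

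The pools fall into a deeper pair and a shallower pair, and the called genes were also called in each. With so few pools and a block, these fits take most of their error estimate from other genes. Depth recovered from the RPKM steps was 16470000 to 22010000 reads in replicates 1 and 2 and 3060000 to 7360000 in replicates 3 and 4. Within replicates 1 and 2 alone 3 of the 9 genes were called higher, against 8.12% of all genes, and within replicates 3 and 4 alone 4, with Bcl2a1b added, against 4.94%. No member was called lower in either, against 1.49% and 2.08%. Within these pairs of pools the log2 fold change was 2.54 and 3.63 for Bcl2a1a, 1.47 and 2.50 for Bcl2a1d, and 3.02 and 2.42 for Pmaip1. Reads behind the values ran from 66 to 21710 per gene and library.

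Genes with the most similar profile over the 8 libraries were taken by the root mean square distance between log2 values centred on each gene's mean. For Bcl2a1a these were Ccl3, a chemokine gene (distance 0.29), Ifitm2 (0.40) and Ifi30, a thiol reductase of antigen processing (0.44). For Bcl2a1d they were Cxx1c (0.30), Ifitm2 (0.34) and Pafah1b3 (0.36). Bcl2a1a and Bcl2a1d lay 0.56 apart and Bcl2a1b 0.59 from Bcl2a1d. For Pmaip1 they were Slc8b1, a mitochondrial ion exchanger (0.24), Btla, an inhibitory receptor (0.25), and Ddx3y, a helicase gene of the Y chromosome (0.25). Pmaip1 lay 1.52 from Bcl2a1a, so that the genes called higher followed different patterns across pools. The libraries share pools and depth classes, and the distances carry no test.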

How the data were processed

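RNA of 1000 sorted cells per library was copied with SMART-seq v4 and made into libraries with NexteraXT, per the labels' protocols. The deposited table holds RPKM per gene, which the authors made from reads mapped with TopHat2 to mm9, per the submitters' processing notes. The counting tool, strand setting and read length are not given in the sources used here. Symbols turned into dates by a spreadsheet were restored for 21 genes. Depth was recovered from the steps of the lowest RPKM values. It was 3060000 to 22010000 reads per library, and 97.2% to 100% of values under 60 reads were whole within 0.1 reads.

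The test was limma 3.58.1 (R 4.3.3) with a mean-variance trend on log2(RPKM + 1), FcgRIIB-positive against FcgRIIB-negative, two-sided. A gene entered if 4 or more libraries held 1 RPKM or more of it (11946 tested, 1258 left out). The pool was a block because both groups were sorted from each pool. Deviations of same-numbered libraries from their group means correlated at 0.704, 0.414, 0.561 and 0.677. A fold change on this scale understates the change of low genes. P-values and intervals of the blocked fit measure the spread of the within-pool difference over 4 pools of spleens, moderated by the variance of other genes. The median total was 21.4 degrees of freedom, most of them from that moderation. The tests ran on normalized values, and the script was tested on simulated data.

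The members, gene lists and tests were chosen with earlier results of these data known. Named genes are all members and the 3 genes closest in profile to each called member. From the family, death pathway and regulator lists they are the called genes (up to 4 in each of the latter 2) and the 2 most abundant of the rest. The rule also takes the 2 most abundant of each marker list. Of these Cd8b1, Cd74, Cst3, Lyz2, Tyrobp, Mcpt8 and Prss34 are named here, and the others are not. Birc3, Endog, Fcer1a, Fcgr2b, Cd8a and the sex-linked genes are named outside this rule, after their values were seen. Alternatives were other pseudocounts, no filter, other scalings, no trend, no block, and leaving out libraries or pools. Promoters are from RefSeq and transcripts from GENCODE M21, both on GRCm38, and no coordinates were moved between builds. The deposited table was matched by symbol and Entrez identifier, with 13187 of 13204 identifiers found.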

Additional observations from a re-analysis of the deposited data

Results flagged for a closer look

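Mcl1 in positive replicate 1 was at 33.8 RPKM, far below the other 3 positive libraries. The gap to its nearest neighbour took up 0.839 of the whole range of the group, above Dixon's critical value for 4 samples. Over 18 groups of 4 libraries looked at in this way (9 genes in 2 sorts) it was the only such value, and chance gives about 1 in 20. Without pool 1 the log2 fold change of Mcl1 was 0.30, against 0.05 with all pools.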

How the results depend on the processing

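Without the replicate block, 362 genes were called higher and 32 lower, against 863 and 460 with the pool as a block. Of the BCL2 family genes only Bcl2a1d changed its call under this pairing choice. Scaled to core T cell genes, 5129 were higher and 13 lower, with 6 family genes higher. Without the mean-variance trend 283 were lower. Replicates 1 and 2 alone gave 178 lower, and replicates 3 and 4 alone 249. Leaving out 1 pool gave 576 to 1242 higher and 157 to 458 lower, with the fewest lower calls without replicate 3. Leaving out 1 library from the unblocked fit gave 178 to 503 higher, 5 to 45 lower, and 1 to 2 family genes higher, 1 without negative replicate 3. No family gene was called lower under any alternative run.

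Bcl2a1a was called higher under every alternative, and Bcl2a1d and Pmaip1 under all that keep the block. Signs turned for genes that did not pass the test. With core T cell scaling Bax was 0.94, Bcl2 0.23 and Bcl2l1 0.84. With quantile normalization Bcl2l11 was -0.13. Replicates 1 and 2 alone gave 0.37 for Bcl2l1 and -0.38 for Mcl1, and replicates 3 and 4 alone gave 0.37 for Bax and -0.44 for Bcl2l11. Without 1 pool Bax ran from -0.27 to 0.13, Bcl2l1 from -0.26 to 0.23, Bcl2l11 from -0.26 to 0.17 and Mcl1 from -0.10 to 0.30. Without 1 library and unblocked, Bax ran from -0.32 to 0.18, Bcl2l1 from -0.48 to 0.34, Bcl2l11 from -0.20 to 0.20 and Mcl1 from -0.10 to 0.40. The cause was not tested. The lowest count behind a single value was 66 reads, for Bcl2a1a, while by median over libraries Bcl2l1 (538) and Bcl2l11 (553) had the fewest.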

Other observations

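Ddx3y, among the genes closest in profile to Pmaip1, led to a look at other genes of the sex chromosomes, chosen after their values were seen. Ddx3y was at 1.55, 3.42, 1.01 and 0.903 RPKM in negative and 23.5, 34.6, 5.25 and 8.16 RPKM in positive replicates 1 to 4. Eif2s3y was at 1.42, 9.64, 2.92 and 2.78 RPKM in negative and 16.7, 28.9, 12.6 and 9.70 RPKM in positive replicates 1 to 4. Every positive library was above every negative one for both of these Y-linked genes. Their log2 fold changes were 2.54 (limma adjusted p = 2.98e-06, and 0.0189 without the block) and 1.91 (limma adjusted p = 4.79e-05, and 0.0445 without the block). The Y-linked genes Kdm5d and Uty, which did not reach the filter on low values, were higher in the positive library of all 4 pools. Xist, the RNA of the inactive X chromosome, was at 1.31, 1.21, 1.65 and 4.25 RPKM in negative and 0.591, 0.251, 0.702 and 1.24 RPKM in positive replicates, with a log2 fold change of -0.81 that did not pass the test (limma adjusted p = 0.126). The sexes of donors and hosts are not given in the sources used here.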
